A study of Mus musculus with 16 samples.

Results

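The 10 genes described here are grouped under heme breakdown and iron handling: Hmox1, Hmox2, Blvra, Blvrb, Fth1, Ftl1, Fech, Slc40a1, Tfrc and Slc11a2. Fech among them acts in heme synthesis. The 10 genes were chosen by symbol for their roles, with earlier results of these data known. All 10 passed the filter on low counts that kept 19509 of 55367 gene rows. RNA was sequenced from mIMCD3 cells, a mouse inner medullary collecting duct line, in 16 libraries, 2 for each of 8 groups. WT cells received DMSO (the solvent) or 10 µM sulforaphane (SFN, an isothiocyanate that activates the transcription factor Nrf2) for 5 h, and were then harvested without stress, in isosmotic medium, or following hyperosmotic stress for 1 h or 6 h. Nrf2-/- cells received SFN and were isosmotic or stressed for 1 h. Each WT arm had 1 isosmotic group, the reference for both stress times, and no isosmotic group kept for 6 h is labelled. In every comparison of 6 h with isosmotic cells, stress therefore cannot be told apart from time since the pretreatment. The hyperosmotic medium of the 1 h groups is given as 600 mOsm. The Nrf2-/- line was made by lentiviral CRISPR/Cas9 with antibiotic selection, and the sources used here do not say whether it is 1 clone. No Nrf2-/- cells with DMSO were analysed here, so the SFN effect in Nrf2-/- cells could not be measured and every difference between genotypes is also a difference between cell lines. The study's methods call the RNA-seq replicates biological, but how the cultures were kept apart is not given in the sources used here, and p-values measure the spread between these libraries.

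Library totals lay between 34484296 and 50774875 counts. Nfe2l2, which encodes Nrf2, stood at 11.01 to 11.6 CPM in the 4 Nrf2-/- libraries. CPM are counts scaled to library size and normalised between libraries by edgeR's TMM. In the 12 WT libraries it was at 140 to 149 CPM at 6 h and at 63.9 to 78.0 CPM otherwise. Keap1, the negative regulator of Nrf2, was at 23.1 to 25.9 CPM at 6 h and at 42.9 to 64.3 CPM otherwise. In isosmotic medium with SFN, Bach1, a repressor of Hmox1, was at 59.8 and 62.5 CPM in Nrf2-/- and at 37.1 and 42.1 CPM in WT cells. Whether these differences bear on Hmox1 was not tested. The summed epithelial markers were at 1960 to 4450 CPM, with the highest sums in the 4 libraries of the 6 h groups, while Aqp2, the water channel of collecting duct principal cells, had 0 to 11 counts. The sums hide single markers. In isosmotic medium with SFN, 2 of the 11 epithelial markers were called higher and 5 lower in Nrf2-/- than in WT cells. Of all genes, 15.7% were called higher and 18.4% lower. Among markers of leukocytes, of fibroblasts and endothelium, and of proximal tubule, 1 of each list was called higher and 1 lower. The summed red cell markers lay between 1.82 and 4.63 CPM. Of these, the globin genes Hba-a2, Hbb-bs and Hbb-bt had 0 counts in all 16 libraries, Hba-a1 and Gata1 at most 14, Alas2 8 to 41 and Epor 38 to 138. Hba-a1 was called higher in isosmotic Nrf2-/- than in WT cells with SFN (edgeR adjusted p = 0.0204) and Epor at 6 h with DMSO (0.0182), on these few counts. The summed markers of leukocytes stood at 16.6 to 20.4 CPM at 6 h and at 3.81 to 9.91 CPM in the other libraries, those of fibroblasts and endothelium at 9.93 to 11.7 against 2.50 to 5.26 CPM, and those of proximal tubule at 37.6 to 40.1 against 7.84 to 14.1 CPM. The 2 Nrf2-/- libraries at 1 h differed more than any other pair, with a biological coefficient of variation of 0.348 against 0.0395 to 0.128 in the other groups.

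Heme oxygenases open the heme ring and release iron, carbon monoxide and biliverdin. Biliverdin reductases turn biliverdin into bilirubin, and the iron is stored in ferritin, a shell of heavy and light chains, or leaves the cell through ferroportin. Hmox1 is a textbook target of Nrf2 and is repressed by Bach1, which binds heme. Kidney cells meet heme that is filtered from plasma, and they take up iron through the transferrin receptor and the divalent metal transporter.

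Some of these mRNAs carry iron-responsive elements, short hairpins that bind the iron regulatory proteins when iron is scarce. In a 5′ UTR the bound hairpin blocks translation, which RNA-seq does not measure, and in the 3′ UTR of the transferrin receptor it protects the mRNA from decay. A search of GENCODE transcripts (release M21, GRCm38) for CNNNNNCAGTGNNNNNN, in which the 5 bases between the bulged C and the loop pair with the 5 bases after the loop, found a match in a UTR of 4 of the 10 genes and of 160 of 21877 genes overall (0.731%). The 7 matches are shown because they set the ferritin, ferroportin and transferrin receptor messages apart by position, with the loop in capitals and on the strand of the gene. They lie at chr19:9982732-9982760 (+) in the 5′ UTR of Fth1, chr7:45459779-45459807 (-) in that of Ftl1 and chr1:45925465-45925493 (-) in that of Slc40a1, and on the + strand of chr16 at 32631219-32631247, 32631598-32631626, 32631663-32631691 and 32631710-32631738 in the 3′ UTR of Tfrc.
Fth1: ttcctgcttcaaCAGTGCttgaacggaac
Ftl1: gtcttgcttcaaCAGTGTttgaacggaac
Slc40a1: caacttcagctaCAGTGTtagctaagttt
Tfrc, the first: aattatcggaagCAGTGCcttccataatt
Tfrc, the second: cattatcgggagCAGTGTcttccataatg
Tfrc, the third: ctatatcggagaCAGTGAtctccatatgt
Tfrc, the fourth: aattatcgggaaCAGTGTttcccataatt

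A match is a description of the letters and shows no binding. No match in the other 6 genes says only that these letters and pairs were not found in their annotated transcripts.

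In isosmotic WT cells with DMSO the 10 genes spanned a wide range of levels. Per kilobase of the reference transcript, Fth1 stood at 981 CPM, Ftl1 at 131, Tfrc at 75.7, Hmox1 at 49.5, Blvra at 30.4, Hmox2 at 28.8, Fech at 28.2, Slc11a2 at 19.1, Blvrb at 16.5 and Slc40a1 at 4.70. The 3 neighbours Blvra, Hmox2 and Fech lay within the spread of the paired libraries. All other levels in the text are CPM without division by length.

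**Figure D1:**
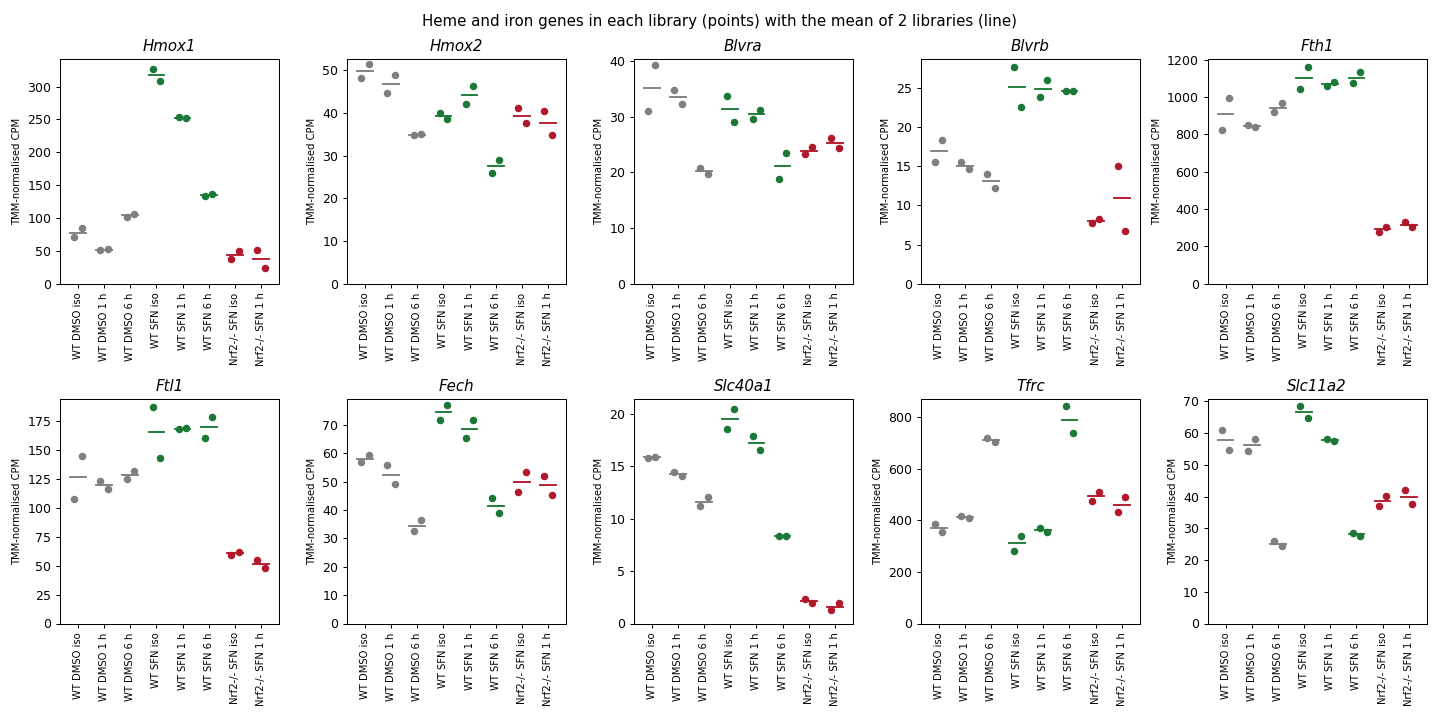
TMM-normalised CPM (y axis, from 0) of the 10 genes in each of the 8 groups (x axis), with a point for each library and a line at the mean of 2 libraries. Hmox1 is highest in WT cells with SFN, Tfrc is highest and Slc11a2 lowest at 6 h, and Fth1, Ftl1 and Slc40a1 are lowest in Nrf2-/- cells.

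Hmox1, the inducible heme oxygenase, was the gene of this set called higher with SFN in the fit to all 16 libraries. In isosmotic WT cells it stood at 71.3 and 84.1 CPM with DMSO and at 327 and 308 CPM with SFN, a 4.09-fold rise (log2 fold change 2.03 ± 0.24 SE, edgeR adjusted p = 0.000311). After 1 h of stress the DMSO libraries were at 51.1 and 53.0 CPM and the SFN libraries at 254 and 252 CPM, a 4.86-fold rise (2.28 ± 0.25, edgeR adjusted p = 0.000998). SFN libraries lay above DMSO libraries at both times with no overlap. The 1 h call was lost without DMSO 1 h replicate 1, where the log2 fold change was 2.25 (edgeR adjusted p = 0.0674). Among all genes tested, 2.84% were called with SFN in isosmotic cells (1.09% higher), 0.0923% at 1 h and 0.0410% at 6 h, and of the 10 genes 1, 1 and 0 were called by edgeR. At an unadjusted p under 0.05 the counts were 7, 5 and 5 of 10. The share of all genes at that threshold is not given here, so these counts cannot be set against the percentages above. DESeq2 called 0 at 6 h and 3 in isosmotic cells. In a fit to the 12 WT libraries alone, in which the Nrf2-/- libraries do not enter the estimate of spread, 6, 3 and 2 were called. These were Hmox1, Blvrb, Fth1 and Fech (higher) and Hmox2 and Tfrc (lower) in isosmotic cells, Hmox1, Blvrb and Fth1 (higher) at 1 h, and Hmox1 and Blvrb (higher) at 6 h. The percentages of all genes above belong to the fit to all 16 libraries. Those for DESeq2 and for the WT fit are not given here, so whether their counts exceed the share of all genes cannot be read.

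After 6 h of stress the 2 DMSO libraries held Hmox1 at 102 and 106 CPM and the 2 SFN libraries at 133 and 137 CPM. The SFN difference was then 0.37 ± 0.23 on the log2 scale and was not called, although the libraries did not overlap. In the fit to WT libraries alone it was called (0.38, edgeR adjusted p = 0.0259). The SFN effect at 6 h was smaller than the isosmotic effect by 1.66 ± 0.33 (log2 difference -1.66, edgeR adjusted p = 0.0360, with 0.759% of all genes called in this test), which was the only call among the 10 genes in this fit. This call was lost when any 1 of the 8 libraries compared was left out (edgeR adjusted p from 0.114 to 0.184), while the estimate stayed between -1.78 and -1.55. With SFN, Hmox1 fell from isosmotic to 6 h by 1.24 ± 0.24 (edgeR adjusted p = 0.000756), whereas with DMSO it differed by 0.42 ± 0.24 (edgeR adjusted p = 0.165), which was called as a rise in the fit to WT libraries alone (0.44, edgeR adjusted p = 2.49e-05). In the tests of the difference at 1 h, 0 of 10 genes were called by edgeR, for the SFN effect (0.559% of all genes) and for the stress effect between genotypes (0.123%), and at an unadjusted p under 0.05 the counts were also 0 and 0. DESeq2 called 0 in both. These comparisons share libraries and are not independent of each other.

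Hmox1 in Nrf2-/- cells with SFN stood at 37.6 and 49.5 CPM in isosmotic medium and at 51.7 and 24.5 CPM after 1 h of stress, below every WT library with SFN. It was 7.29-fold lower than in WT cells with SFN (log2 fold change -2.87 ± 0.25, edgeR adjusted p = 1.07e-06) and 6.64-fold lower at 1 h (-2.73 ± 0.25, edgeR adjusted p = 1.95e-06). Without Nrf2-/- 1 h replicate 1 the log2 difference at 1 h was -3.36. Against isosmotic WT cells with DMSO it was 1.79-fold lower (-0.84 ± 0.24, edgeR adjusted p = 0.0130). That last call was lost without Nrf2-/- isosmotic replicate 1 (edgeR adjusted p = 0.129) or without WT DMSO isosmotic replicate 2 (0.103).

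Hmox2, the constitutive heme oxygenase, was not called with SFN in the fit to all libraries. It stood at 48.3 and 51.4 CPM with DMSO and at 40.0 and 38.6 CPM with SFN in isosmotic WT cells, a log2 difference of -0.34 ± 0.11 (edgeR adjusted p = 0.135). It was called lower with DESeq2 (DESeq2 adjusted p = 0.0489) and in the fit to WT libraries alone (edgeR adjusted p = 0.0162). At 6 h it was at 34.8 and 35.1 CPM with DMSO and at 25.8 and 29.1 CPM with SFN, lower than in isosmotic cells in both arms (-0.51 ± 0.11 and -0.52 ± 0.11, edgeR adjusted p = 0.00171 and 0.00163). The Nrf2-/- libraries held 41.1 and 37.7 CPM in isosmotic medium, with a log2 difference from WT cells with SFN of 0.00 ± 0.11. Against WT cells with DMSO it was called lower (-0.34 ± 0.11, edgeR adjusted p = 0.0260), a call lost when any 1 of the 4 libraries compared was left out (edgeR adjusted p from 0.0527 to 0.177). Of the exon bases of Hmox2, 40.2% overlap Cdip1 on the opposite strand, and whether reads were counted by strand is not given in the sources used here.

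Per kilobase, Hmox1 stood above Hmox2 by 1.63 and 1.81 times in the 2 isosmotic WT libraries with DMSO, by 1.27 and 1.19 times with DMSO at 1 h, and by 9.01 and 8.80 times with SFN. The ratio was 6.65 and 6.01 with SFN at 1 h, 5.67 and 5.19 with SFN at 6 h, and 3.23 and 3.34 with DMSO at 6 h. In the 4 Nrf2-/- libraries it ran from 0.776 to 1.45, a range that holds both WT libraries with DMSO at 1 h.

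**Figure D2:**
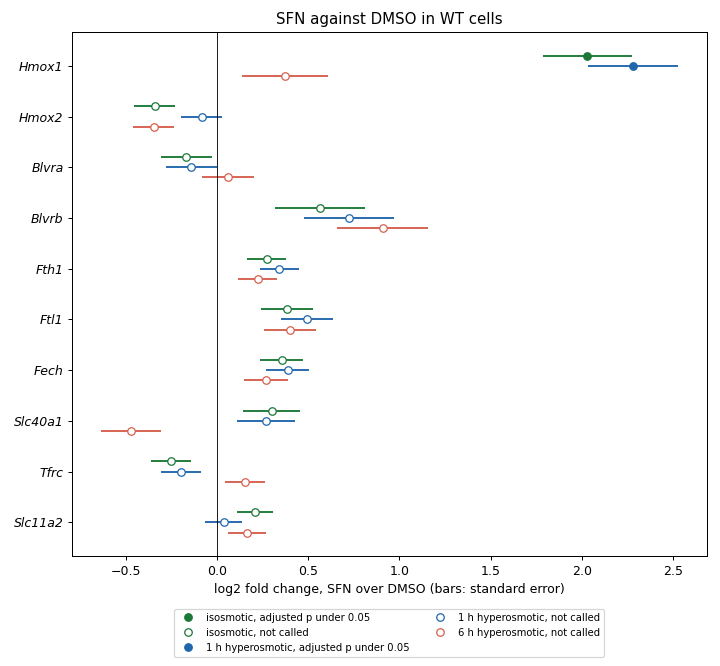
Log2 fold change of SFN over DMSO (x axis) for the 10 genes (y axis) in WT cells in isosmotic medium, at 1 h and at 6 h, with bars of 1 standard error and filled points for calls. Hmox1 lies at 2.03 and 2.28 in isosmotic medium and at 1 h and at 0.37 at 6 h.

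Blvrb, the biliverdin IXβ reductase, which also reduces flavins, was higher in every WT library with SFN than in every WT library with DMSO. It stood at 15.5 and 18.4 CPM with DMSO against 27.6 and 22.5 CPM with SFN in isosmotic medium. At 1 h it was at 15.5 and 14.6 against 23.8 and 26.0 CPM, and at 6 h at 14.0 and 12.2 CPM against 24.6 CPM in both SFN libraries. The log2 differences, 0.57 ± 0.25, 0.72 ± 0.25 and 0.91 ± 0.25, did not pass edgeR's test after adjustment over all genes (adjusted p = 0.286, 1.00 and 1.00). Fitted to the 12 WT libraries alone, the differences were 0.58, 0.72 and 0.91 and all 3 were called (edgeR adjusted p = 0.00249, 0.00424 and 0.000943). Blvrb in Nrf2-/- cells was lower than in WT cells with SFN by 3.12-fold in isosmotic medium (7.79 and 8.27 CPM, edgeR adjusted p = 0.000163) and by 2.28-fold at 1 h (15 and 6.77 CPM, edgeR adjusted p = 0.00216). Without Nrf2-/- 1 h replicate 1 the log2 difference at 1 h went from -1.19 to -1.86, and in the fit to the 4 libraries compared it was not called (edgeR adjusted p = 0.139). The first of the 1 h libraries lay within the range of WT cells with DMSO.

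Blvra, the reductase of biliverdin IXα, did not follow Blvrb. It was at 31.1 and 39.4 CPM with DMSO and at 33.7 and 29.0 CPM with SFN in isosmotic WT cells, and these libraries overlapped. After 6 h it fell 1.74-fold with DMSO (20.9 and 19.7 CPM, log2 fold change -0.80 ± 0.14, edgeR adjusted p = 0.000336) and 1.48-fold with SFN (18.8 and 23.4 CPM, -0.57 ± 0.14, edgeR adjusted p = 0.00415). The second call was lost without SFN 6 h replicate 1 (edgeR adjusted p = 0.0633). In Nrf2-/- isosmotic cells it stood at 23.3 and 24.6 CPM, 1.31-fold lower than in WT cells with SFN (-0.39 ± 0.14, edgeR adjusted p = 0.0442), a call lost without either Nrf2-/- library or without WT SFN replicate 1 (edgeR adjusted p = 0.189, 0.112 and 0.282) and with RLE size factors (0.0660). Against WT cells with DMSO it was 1.47-fold lower (edgeR adjusted p = 0.00567, and 0.104 without WT DMSO replicate 2).

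Fth1, the ferritin heavy chain with ferroxidase activity, was the most abundant of the 10 messages. In isosmotic WT cells it stood at 825 and 997 CPM with DMSO and at 1041 and 1160.3 CPM with SFN, a log2 difference of 0.27 ± 0.11 that was not called (edgeR adjusted p = 0.225). The libraries with SFN lay above those with DMSO also at 1 h (849 and 838 against 1058 and 1080 CPM) and at 6 h (918 and 968 against 1072 and 1131 CPM), again without a call. In the fit to WT libraries alone Fth1 was called higher with SFN in isosmotic medium (0.29, edgeR adjusted p = 0.00914) and at 1 h (0.34, edgeR adjusted p = 0.0319). The log2 differences between hyperosmotic and isosmotic WT cells ran from -0.11 to 0.05 in the 4 comparisons, each with a standard error of 0.11, and none was called. Nrf2-/- cells held it at 278 and 305 CPM in isosmotic medium and at 328 and 302 CPM at 1 h, 3.77-fold and 3.39-fold below WT cells with SFN (log2 fold change -1.92 ± 0.11 and -1.76 ± 0.11, edgeR adjusted p = 6.36e-09 and 1.73e-08). It was also 3.12-fold below isosmotic WT cells with DMSO (-1.64 ± 0.11, edgeR adjusted p = 3.28e-08).

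Ftl1, the ferritin light chain that helps form the iron core, was also lower in Nrf2-/- than in WT cells. It stood at 108 and 145 CPM with DMSO and at 187 and 143 CPM with SFN in isosmotic WT cells, which overlapped, and at 59.2 and 61.8 CPM in Nrf2-/- cells. Nrf2-/- cells were 2.73-fold lower than WT cells with SFN in isosmotic medium and 3.26-fold lower at 1 h (edgeR adjusted p = 2.48e-06 and 5.78e-07). They were 2.09-fold lower than WT cells with DMSO (edgeR adjusted p = 4.52e-05).

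Reads of the light chain were divided among rows of the count tables. Ftl2-ps, a processed pseudogene, held 7206 to 43853 counts per library and Ftl1 itself 1665 to 7702, which was 14.7% to 23.5% of the sum of Ftl1, Ftl2-ps, Ftl1-ps1 and Ftl1-ps2. How reads shared by such copies were counted is not given in the sources used here, so the Ftl1 row alone is uncertain. With the 4 rows added together, SFN gave a log2 difference of 0.49 ± 0.13 in isosmotic WT cells (edgeR adjusted p = 0.0553), 0.52 ± 0.13 at 1 h (0.446) and 0.39 ± 0.13 at 6 h (1.00). The summed rows were 3.48-fold lower in Nrf2-/- than in WT cells with SFN (-1.80 ± 0.13, edgeR adjusted p = 7.22e-08), 2.72-fold lower at 1 h (7.46e-07) and 2.49-fold lower than in WT cells with DMSO (1.69e-06). Direction and calls were those of the Ftl1 row in each of these 6 comparisons.

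Slc40a1 encodes ferroportin, the iron exporter. In isosmotic medium it was at 15.8 and 15.9 CPM in WT cells with DMSO, at 18.5 and 20.5 CPM with SFN, and at 2.30 and 1.93 CPM in Nrf2-/- cells. The Nrf2-/- level was 9.20-fold below WT cells with SFN (log2 fold change -3.20 ± 0.18, edgeR adjusted p = 5.60e-09) and 7.47-fold below WT cells with DMSO (-2.90 ± 0.18, edgeR adjusted p = 1.67e-08). At 1 h it was at 1.25 and 1.93 CPM in Nrf2-/- cells, 10.8-fold below WT cells with SFN (-3.43 ± 0.19, edgeR adjusted p = 4.53e-09). This was the largest fold difference of the 10 genes between genotypes, on a gene that had 44 counts in its lowest library.

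After 6 h of stress Slc40a1 stood at 11.2 and 12 CPM with DMSO and at 8.34 and 8.38 CPM with SFN. It fell 2.33-fold with SFN (log2 fold change -1.22 ± 0.16, edgeR adjusted p = 2.59e-05). With DMSO it was 1.37-fold lower (-0.45 ± 0.16, edgeR adjusted p = 0.0320), a call lost when any 1 of the 4 libraries compared was left out (edgeR adjusted p from 0.0800 to 0.163), with RLE size factors (0.0898) and without the filter on low counts (0.0765). The difference between the SFN effects at 6 h and in isosmotic medium was -0.77 ± 0.23 and was not called (edgeR adjusted p = 0.199). It was called with DESeq2 (-0.79, DESeq2 adjusted p = 0.0166) and in the fit to WT libraries alone (-0.79, edgeR adjusted p = 0.00666).

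Tfrc, the transferrin receptor, was the gene of this set called higher after 6 h of stress in the fit to all 16 libraries. It went from 384 and 356 CPM to 718 and 705 CPM with DMSO, a 1.92-fold rise (log2 fold change 0.94 ± 0.11, edgeR adjusted p = 8.91e-06). With SFN it went from 282 and 339 CPM to 844 and 738 CPM, a 2.55-fold rise (1.35 ± 0.11, edgeR adjusted p = 2.98e-07). The test of the difference between these rises gave 0.41 ± 0.16 (edgeR adjusted p = 0.427, and 0.0472 in the fit to WT libraries alone). Over all genes 45.9% were called at 6 h with DMSO (23.9% higher, 22.0% lower) and 47.6% with SFN (24.7% higher, 22.9% lower), against 6 of 10 genes (1 higher, 5 lower) and 7 of 10 (1 higher, 6 lower) here. At 6 h with DMSO 3 of 5 leukocyte markers, 5 of 5 of fibroblasts and endothelium and 3 of 3 of proximal tubule that passed the filter were called higher too, and their part in the results at 6 h was not tested. With the RLE scaling the median log2 fold change of all genes at 6 h moved from 0.05 to 0.14 with DMSO and from 0.09 to 0.16 with SFN.

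Tfrc in Nrf2-/- cells with SFN was at 476 and 510.1 CPM in isosmotic medium and at 432 and 491 CPM at 1 h. It was 1.59-fold higher than in WT cells with SFN (0.67 ± 0.11, edgeR adjusted p = 0.000281) and 1.27-fold higher at 1 h (0.35 ± 0.11, edgeR adjusted p = 0.0259). The 1 h call was lost without either WT SFN 1 h library (edgeR adjusted p = 0.0963 and 0.166). The excess over isosmotic WT cells with DMSO was 1.33-fold (edgeR adjusted p = 0.00827), lost without Nrf2-/- isosmotic replicate 2 (0.0727) or WT DMSO replicate 2 (0.0864).

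Slc11a2, the divalent metal transporter DMT1, which moves iron out of endosomes after transferrin uptake, ran against Tfrc. It fell from 60.8 and 54.7 CPM to 25.9 and 24.3 CPM over 6 h with DMSO (2.30-fold, log2 fold change -1.20 ± 0.10, edgeR adjusted p = 4.79e-07). With SFN it fell from 68.6 and 64.8 CPM to 28.5 and 27.7 CPM (2.37-fold, -1.25 ± 0.10, edgeR adjusted p = 2.83e-07). In Nrf2-/- cells it was at 37.1 and 40.0 CPM in isosmotic medium and at 42.1 and 37.7 CPM at 1 h, 1.73-fold and 1.45-fold below WT cells with SFN (edgeR adjusted p = 2.65e-05 and 0.000970). Across the 8 group means, Pearson's r of log2 levels of Tfrc and Slc11a2 was -0.97, a description over 8 points that share libraries. This was not particular to Slc11a2. The value for Tfrc was -0.93 with Fech, -0.89 with Blvra and -0.80 with Hmox2, and between -0.29 and -0.04 with the remaining genes of the set.

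Fech, ferrochelatase, inserts iron into protoporphyrin in the last step of heme synthesis. It stood at 56.8 and 59.5 CPM with DMSO and at 71.7 and 77.0 CPM with SFN in isosmotic WT cells, apart from each other but not called (0.36 ± 0.12, edgeR adjusted p = 0.145). DESeq2 (adjusted p = 0.0364) and the fit to WT libraries alone (edgeR adjusted p = 0.00662) called it higher. After 6 h it fell 1.69-fold with DMSO (32.4 and 36.6 CPM, edgeR adjusted p = 0.000135) and 1.79-fold with SFN (44.1 and 39.0 CPM, edgeR adjusted p = 4.79e-05). Nrf2-/- cells held 46.3 and 53.3 CPM in isosmotic medium, 1.49-fold below WT cells with SFN (edgeR adjusted p = 0.00153), and 1.41-fold below at 1 h (edgeR adjusted p = 0.00524, and 0.0637 without WT SFN 1 h replicate 2). The log2 difference from WT cells with DMSO, -0.22 ± 0.12, was not called (edgeR adjusted p = 0.156).

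**Figure D3:**
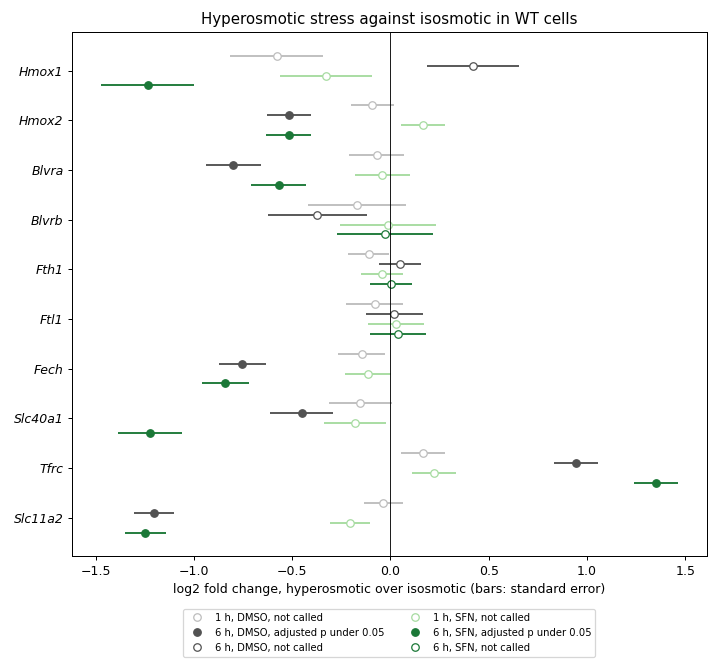
Log2 fold change of hyperosmotic over isosmotic WT cells (x axis) for the 10 genes (y axis) after 1 h and 6 h with DMSO or SFN, with bars of 1 standard error and filled points for calls. At 6 h Tfrc lies at 0.94 and 1.35 and Slc11a2 at -1.20 and -1.25, and no point at 1 h is filled.

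After 1 h of stress none of the 10 genes was called by edgeR's quasi-likelihood test in WT cells with DMSO, in WT cells with SFN or in Nrf2-/- cells, while 11.2%, 9.52% and 7.17% of all genes were. At an unadjusted p under 0.05 the counts were 1, 0 and 0 of 10. Hmox1 with DMSO, at 51.1 and 53.0 against 71.3 and 84.1 CPM, was the 1 gene (log2 difference -0.58 ± 0.24, edgeR adjusted p = 0.151). DESeq2 also called 0 of 10 in each of these 3 comparisons. Fitted to the 12 WT libraries alone, Hmox1 was called lower with DMSO (-0.56, edgeR adjusted p = 1.39e-05) and with SFN (-0.33, edgeR adjusted p = 0.00230). In Nrf2-/- cells the unlike libraries at 1 h decided the estimates. Without replicate 1 the log2 difference of Hmox1 was -0.84. Without replicate 2 that of Blvrb was 0.90 and that of Slc40a1 -0.76. Each of these fits rests on 1 Nrf2-/- library at 1 h and holds no spread from that group.

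Between genotypes the counts were 9 of 10 in isosmotic cells with SFN (1 higher, 8 lower), 8 of 10 at 1 h (1 higher, 7 lower) and 9 of 10 for Nrf2-/- cells with SFN against WT cells with DMSO (1 higher, 8 lower). Of all genes, 34.1% (15.7% higher, 18.4% lower), 31.5% (15.3% higher, 16.2% lower) and 38.8% (18.0% higher, 20.8% lower) were called. The median log2 fold change of the 10 genes was -1.12, -0.86 and -0.71, and that of all genes tested was 0.00, -0.02 and 0.00. The 8 genes called at 1 h stayed called without either of the unlike Nrf2-/- libraries. Fitted to the 4 libraries compared alone, 4 of 10 were called at 1 h (Hmox1, Fth1, Ftl1 and Slc40a1, all lower). The share of all genes called in that fit is not given here. Without WT DMSO isosmotic replicate 2, 5 of 10 were called in the last comparison. The 3 comparisons share libraries.

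**Figure D4:**
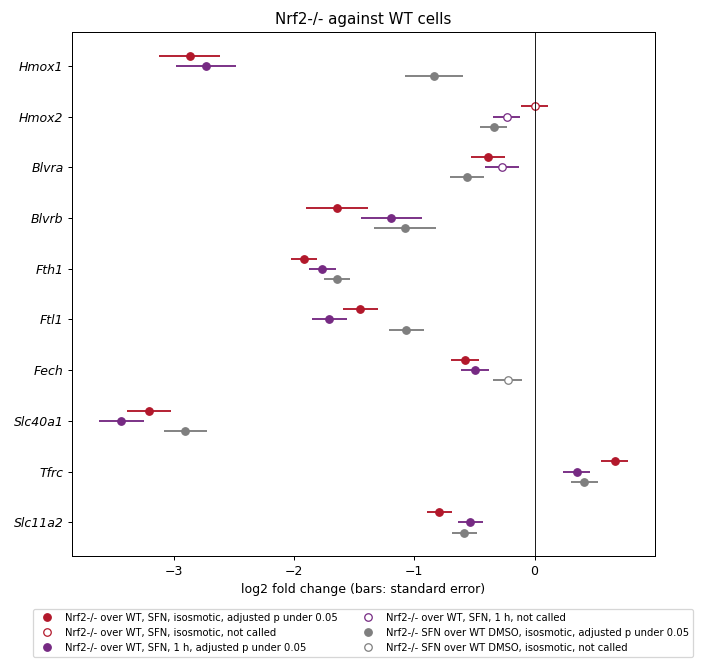
Log2 fold change between Nrf2-/- and WT cells (x axis) for the 10 genes (y axis) in isosmotic medium and at 1 h, both with SFN, and for Nrf2-/- cells with SFN against WT cells with DMSO, with bars of 1 standard error and filled points for calls. Slc40a1 lies lowest at -3.20, -3.43 and -2.90, and Tfrc is the gene to the right of 0 in all 3.

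The balance of uptake and storage messages within a library was read as Tfrc over Fth1, per kilobase of transcript. In WT cells it ran from 0.0515 to 0.0937 in the isosmotic and 1 h libraries and from 0.124 to 0.150 in the 6 h libraries. In Nrf2-/- cells it ran from 0.250 to 0.325, above every WT library. At 6 h Tfrc was higher while no change of Fth1 was called, and in Nrf2-/- cells Fth1 was lower and Tfrc higher than in WT cells with SFN.

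**Figure D5:**
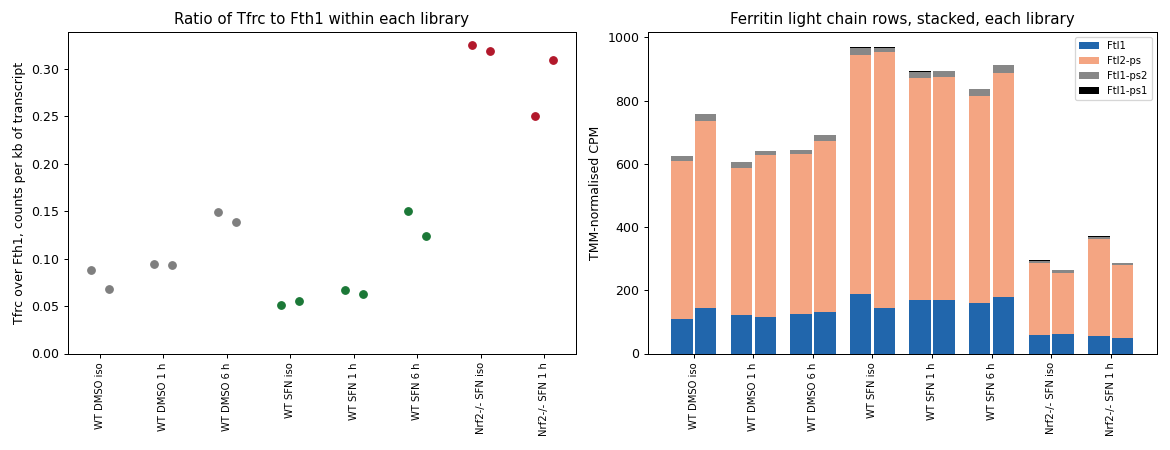
Left, the ratio of Tfrc to Fth1 counts per kilobase of transcript (y axis) in each library of the 8 groups (x axis). Right, TMM-normalised CPM (y axis) of the 4 ferritin light chain rows stacked for each library, in which Ftl2-ps is the largest piece and Ftl1 14.7% to 23.5% of the sum.

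The genes whose 8 group means ran closest to those of Hmox1, among 12290 genes ranked by Pearson's r of log2 levels, were Gclm (0.97), Srxn1 (0.95), Zdhhc18 (0.94), Pgd (0.93) and Txnrd1 (0.92). Gclm is a subunit of the enzyme that limits glutathione synthesis, and Srxn1 and Txnrd1 encode sulfiredoxin and thioredoxin reductase. Those closest to Tfrc were Kcnj2 (0.99), Sh2d4b (0.99), Cpe (0.98), Creb3l2 (0.98) and Hoxa9 (0.98). These are descriptions over 8 points.

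Around the 10 genes, the pathway lists held 13 genes of heme synthesis, 8 of heme transport and carriers, 18 of cellular iron uptake, storage and regulation, and 12 of iron-sulfur cluster assembly. With SFN in WT cells the gene called among them was Slc48a1, the transporter that brings heme out of lysosomes. It stood at 121 and 124 CPM with DMSO and at 266 and 244 CPM with SFN in isosmotic medium (log2 fold change 1.06 ± 0.09, edgeR adjusted p = 1.26e-05). It was also higher with SFN than with DMSO at 1 h (1.05 ± 0.09, edgeR adjusted p = 6.04e-05) and at 6 h (0.85 ± 0.09, edgeR adjusted p = 0.00210). The 6 h call was lost without DMSO 6 h replicate 1 or SFN 6 h replicate 2, where the log2 differences were 0.75 and 0.82. Within the SFN arm Slc48a1 was lower at 6 h than in isosmotic medium (-0.77 ± 0.09, edgeR adjusted p = 9.51e-06). Its level in Nrf2-/- cells was 34.5 and 34.8 CPM, 7.36-fold below WT cells with SFN (-2.88 ± 0.10, edgeR adjusted p = 3.06e-11).

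After 6 h of stress with DMSO, 8 of the 13 heme synthesis genes fell and 0 rose (median log2 fold change -0.45, against 0.05 for all genes), where 22.0% of all genes were called lower. Alas1, the enzyme of the first step, fell by 0.97 on the log2 scale (edgeR adjusted p = 1.01e-05) and Ppox by 0.99 (edgeR adjusted p = 0.00689, and 0.0502 without DMSO 6 h replicate 1). With SFN 8 of 13 fell as well, and 0 rose, against 22.9% of all genes called lower.

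Of the 12 iron-sulfur assembly genes, 5 fell and 1 rose at 6 h in each WT arm. Calls in either direction were near the 45.9% and 47.6% of all genes. By direction, 22.0% of all genes were called lower and 23.9% higher with DMSO, and 22.9% and 24.7% with SFN. The median log2 fold change of the 12 was -0.49 with DMSO and -0.27 with SFN, against 0.05 and 0.09 for all genes. Lyrm4, which stabilizes the cysteine desulfurase, went from 11.3 and 12.7 CPM to 3.07 and 2.78 CPM with DMSO (-2.04 ± 0.19, edgeR adjusted p = 1.19e-06). Isca2 and Nfu1, late-acting assembly factors, fell by 1.66 and 1.24 on the log2 scale (edgeR adjusted p = 1.29e-05 and 2.58e-05).

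Of the 16 iron uptake, storage and regulation genes outside the 10 that passed the filter, 6 rose and 0 fell at 6 h with DMSO, and 6 rose and 2 fell with SFN. Calls in either direction were thus no more frequent with DMSO than the 45.9% of all genes, and near the 47.6% with SFN. By direction, 23.9% of all genes were called higher and 22.0% lower with DMSO, and 24.7% and 22.9% with SFN. Slc25a28, the mitochondrial iron importer mitoferrin 2, went from 48.0 and 51.2 CPM to 133 and 142 CPM with DMSO (1.47 ± 0.21, edgeR adjusted p = 6.55e-05). Its partner Slc25a37, mitoferrin 1, named after its values were seen, rose by 1.38 with DMSO (edgeR adjusted p = 8.07e-07) and by 1.05 with SFN (8.24e-06). In the SFN arm Slc25a37 was lower after 1 h of stress than in isosmotic medium, in WT cells (-0.72 ± 0.12, edgeR adjusted p = 0.00213) and in Nrf2-/- cells (-0.86 ± 0.12, edgeR adjusted p = 0.000834). The call in Nrf2-/- cells was lost in the fit to the libraries compared alone (edgeR adjusted p = 0.12). Trf, transferrin, and Cybrd1, a ferric reductase, were also called at 6 h with DMSO, but on 13 to 23 and 11 to 21 counts against 0 and 0 to 4, so no fold is given.

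Of the 8 heme transport and carrier genes, 2 rose and 2 fell at 6 h with DMSO, and 1 rose and 3 fell with SFN. Calls in either direction were also near the 45.9% and 47.6% of all genes. Slc46a1, the proton-coupled folate transporter that also carries heme, fell by 1.06 on the log2 scale with DMSO and by 1.2 with SFN (edgeR adjusted p = 4.48e-05 and 1.43e-05). Between genotypes with SFN in isosmotic medium 3 of these genes were higher and 2 lower in Nrf2-/- cells, among them Lrp1, the receptor for heme bound to hemopexin (1.86 ± 0.19, edgeR adjusted p = 2.26e-06), and Abcg2, an efflux pump that carries porphyrins (-1.21 ± 0.11, edgeR adjusted p = 1.13e-06).

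In the same genotype comparison 34.1% of all genes were called (15.7% higher, 18.4% lower), and the lists of heme synthesis and of iron genes held a smaller share of calls than that. There 0 of the heme synthesis genes were higher and 3 of 13 lower, with Tmem14c, a mitochondrial porphyrin carrier, at -1.04 ± 0.21 (edgeR adjusted p = 0.00135), Alas1 at -0.54 and Alad at -0.52. In the iron list 1 of 16 was higher, Fbxl5, the iron sensor that degrades iron regulatory protein 2 (0.82 ± 0.10, edgeR adjusted p = 1.05e-05), and 3 were lower. Among these were Steap3 (-2.96 ± 0.49, edgeR adjusted p = 0.000253) and Steap2, a metalloreductase (-0.69 ± 0.17, edgeR adjusted p = 0.00447). Steap3 rested on few counts, 8 and 12 in the Nrf2-/- libraries against 72 and 129 in the WT libraries. In the iron-sulfur list 1 of 12 was higher and 5 were lower, among them Bola3 at -0.78 ± 0.19 (edgeR adjusted p = 0.00546), a call lost without WT SFN isosmotic replicate 1 (0.0762).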

How the data were processed

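Counts of 16 mIMCD3 libraries were analysed. The authors deposited raw counts per gene symbol, 1 file a library, without normalization. The paper's methods name Hisat2, the mm10 build, Samtools and FeatureCounts, and the submitters' processing notes name Bowtie2, SAMtools and featureCounts. Tool versions, the annotation, strandedness and how shared reads were handled are not given in the sources used here. A protocol label mentions primary cells, but every other label names mIMCD3. Lines without a gene name (5 in all, in 2 libraries) were left out.

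Groups came from the labels. Members and gene lists were chosen with earlier results of these data known. Genes were tested in R 4.3.3 with edgeR 4.0.16 (filterByExpr, TMM, robust quasi-likelihood F-test, 8 group coefficients over all 16 libraries), and 14 comparisons were made. Adjusted p is Benjamini-Hochberg over 19509 genes, called under 0.05. Log2 fold changes are given with standard errors. CPM are TMM-scaled; division by length used the first GENCODE M21 transcript of each gene. All 10 members were named, and from each other list up to 3 called genes with the largest change per comparison, of which the text gives a part.

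Alternatives were RLE size factors, DESeq2 1.42.0, no filter, only the libraries compared, only WT libraries, a replicate block and leaving out each library. A fit that leaves out 1 library keeps 1 in its group, so that group adds nothing to the estimate of spread. Summing the 4 ferritin light chain rows and leaving out both Nrf2-/- 1 h libraries were chosen after seeing the data. On simulated data for SFN against DMSO in isosmotic cells (19509 genes), 78 of 100 genes changed 2-fold and 97 of 100 changed 4-fold were called, with 12 false calls. The changed genes were drawn only from genes above a floor of counts, and each gene had the same spread in all groups. The real groups differed in spread (coefficient of variation 0.0395 to 0.348), so these figures may not hold for the real libraries or for genes of few counts. A permutation test of 2 against 2 libraries cannot go below p = 0.333, so none was run.

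RefSeq promoter windows (GRCm38.p6, 300 bases) matched 6 of the 10 genes. TGACNNNGC, searched on both strands, was found in that of Blvra and in 12.4% of 32851 windows; no entry was matched for Hmox1, Slc40a1, Slc11a2 and Fech.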

Additional observations from a re-analysis of the deposited data

Results flagged for a closer look

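The SFN effect on Hmox1 differed between isosmotic WT cells and WT cells after 6 h of hyperosmotic stress, by a test of the difference itself: the log2 effect at 6 h minus that in isosmotic medium was -1.66 (SE 0.33; edgeR's quasi-likelihood test, adjusted p = 0.0360). All 4 SFN libraries lay above the DMSO libraries of the same time. No isosmotic group kept for 6 h is labelled, so stress and time since the pretreatment cannot be told apart here. The call did not hold without any 1 of the 8 libraries, with edgeR adjusted p from 0.114 to 0.184.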

How the results depend on the processing

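Of 42 calls on the 10 genes, 31 held in every fit that left out 1 library and 11 were lost in at least 1, and no call changed direction. By the range of those fits, the number of the 10 genes called was 0 to 1 for SFN at 1 h, 5 to 8 for Nrf2-/- with SFN against WT with DMSO, 0 to 2 for 1 h of stress in Nrf2-/- cells, 0 to 2 for the difference of that effect from WT, and 0 to 0 for the difference of the SFN effect at 6 h. Fitted to the 12 WT libraries alone, the counts were 6 (SFN, isosmotic), 3 (SFN, 1 h), 2 (SFN, 6 h), 1 and 1 (1 h of stress with DMSO and with SFN) and 3 (difference of the SFN effect at 6 h). Fitted to the libraries compared alone they were 2, 6, 3, 1, 1 and 2, and 4 between genotypes at 1 h. These fits leave other groups out of the estimate of spread. DESeq2 called 3 for SFN in isosmotic medium and 2 for the difference at 6 h. Without the filter on low counts 2 were called for SFN in isosmotic medium, 1 for SFN at 6 h and 1 for 1 h of stress with DMSO. The cause was not tested. The shares of all genes called in these alternative fits are not given here, and those in the text belong to the fit to all 16 libraries. Whether the counts from the alternative fits exceed the share of all genes therefore cannot be read.

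Uncalled log2 differences could change sign when 1 library was left out, among them Blvra with SFN in isosmotic medium (-0.33 to 0.013) and at 6 h (-0.11 to 0.21), Slc11a2 with SFN at 1 h (-0.011 to 0.088), 1 h of stress in Nrf2-/- cells for Blvrb (-0.25 to 0.90) and Hmox1 (-0.84 to 0.25), and for Hmox1 the difference of that effect from WT (-0.50 to 0.58). Small stress differences of Fth1 (6 h with DMSO, -0.087 to 0.19) and of Ftl1 and Blvra (1 h with DMSO, -0.28 to 0.15 and -0.23 to 0.11), and for Blvrb the 1 h effect in Nrf2-/- cells minus that in WT (-0.24 to 0.91), also took both signs across the settings. Leaving out both Nrf2-/- 1 h libraries changed no call in the 2 comparisons of Nrf2-/- with WT in isosmotic medium, and RLE scaling changed no count of the 10 genes by over 1.5 times.

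Replicate numbers showed no general pairing of the libraries. Over 28 pairs of groups the correlation of same-numbered deviations ran from -0.25 to 0.40, with a median of -0.01. It was over 0.1 in 3 pairs, so a link between some groups is not excluded. With the replicate block the difference of the SFN effect at 6 h had 0 calls (Hmox1, edgeR adjusted p = 0.0608), Blvra between genotypes in isosmotic medium was not called (0.0546), and no other call on the 10 genes or the other genes named changed. With 2 libraries a group and 34484296 to 50774875 counts each, the spread between libraries, not the counts, limits the differences between abundant genes.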
